A study of Mus musculus with 5 samples.

Results

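The respiratory chain of the inner mitochondrial membrane moves electrons from NADH and succinate to oxygen and uses the proton gradient this builds to make ATP. Complex I (NADH dehydrogenase, the Nduf genes) and complex II (succinate dehydrogenase, the Sdh genes) pass electrons to ubiquinone, complex III (the Uqcr genes) passes them on to cytochrome c, complex IV (cytochrome c oxidase, the Cox genes) reduces oxygen, and ATP synthase (the Atp5 genes) uses the gradient. Most subunits are encoded in the nucleus and are expressed in nearly every cell, while a few complex IV subunits exist as alternative isoforms tied to muscle, testis, lung or low oxygen. Osteoblasts and osteocytes draw on both respiration and glycolysis, and low oxygen is known to shift cells toward the latter.

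The genes described here are the 77 rows of the value table, of 23185 with a gene name, whose platform symbol starts as a nuclear-encoded subunit of these complexes does. They fall into 35 rows of complex I, 4 of complex II, 8 of complex III, 17 of complex IV and 13 of ATP synthase. The symbol decided membership and no measured value did. Of the 77 rows, 74 are protein-coding genes and 3 (Atp5c1-ps, Ndufs5-ps and Uqcrh-ps1) are pseudogenes of subunits, and Ndufa4l2 is matched by name although it is a paralogue of Ndufa4 rather than a standard subunit. Ndufa4 itself is counted with complex I by its name, although its protein is now placed in complex IV. Likewise Cox7a2l, a supercomplex factor named as a Cox7a2 relative, is counted with complex IV by its name. The subunits encoded by mitochondrial DNA are not analysed here.

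The arrays, by Affymetrix, covered 5 clones of the mouse osteocytic line Ocy454 with 1 array per clone, and each clone grew from a single sorted cell. Out of 37 clones screened for sclerostin (the product of Sost) after 7 days in culture, 2 high SOST clones (12H and 15H) and 3 low SOST clones (4L, 9L and 24L) were profiled, all untreated and kept at 37 °C in aMEM with serum. A clone is a line of its own, so the spread within a group holds differences between lines as well as between cultures, and nothing in the labels names a second culture of any clone. Values are on the log2 scale after RMA, where a difference of 1 is a 2-fold difference, and the brightness of different genes cannot be compared because it depends on their probes. The number of arrays limits the precision, and an exact permutation test of 2 clones against 3 could not give a p under 0.1.

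The clones expressed most osteoblast markers. Of 10 measured, 8 averaged 6 or more, with a mean over the list from 6.53 in 4L to 10.28 in 12H, and of 14 osteocyte markers 5 did. All 10 osteoblast markers were brighter on average in the high SOST clones (median difference 2.16). Without overlap, 7 were higher and 0 lower (8.26% and 7.75% of all genes). In 4L, Ibsp (2.24) and Sp7 (2.68) were at background. Among osteocyte markers, both high SOST clones lay above all low SOST clones in 5 and below them in 1 (8.26% and 7.75% of all genes). The 5 include Sost, for whose product the clones were screened (difference 0.14, SE 0.07). The marker below was Pdpn, at 8.35 and 8.06 in 12H and 15H and 8.97 to 9.20 in the low SOST clones (-0.92, SE 0.13). Phex read 6.04 and 6.99 in 12H and 15H and 2.08 to 3.17 in the low SOST clones, Dmp1 7.45 and 5.75 and 2.54 to 2.90, and Dkk1 6.71 and 8.17 and 3.46 to 3.93. Mepe, Fgf23 and Reln read 3.29 or less in every clone, and Sost itself read between 3.78 and 4.08. None of these markers passed over all genes, and their part in the values below was not tested. Markers of striated muscle (22 measured), adipocytes (8) and blood or endothelium (9) held 0 genes with a mean of 6 or more, and 9 chondrocyte markers held 1. As a guide to background, 95% of the 1354 olfactory and vomeronasal receptor genes read under a level of 3.37 to 3.56, depending on the clone (called the receptor level here). Of the 77 respiratory chain rows, 67 exceeded that level in every clone, 6 were under it in every clone, and 61 averaged 6 or more.

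Respiratory chain subunits read at nearly the same level in high SOST and low SOST clones. None of the 77 passed the test across all genes (limma, adjusted p under 0.05, 0 higher and 0 lower in high SOST clones), and neither did any of the 23185 genes (0% in both directions). At an unadjusted p under 0.05, 0 members were higher and 3 were lower, against 3.07% and 2.71% of all genes, and an unmoderated equal-variance test gave the same counts of members, 0 and 3. The median difference, high SOST minus low SOST, was -0.04 over the members and 0 over all genes. Single differences ran from -0.82 for Cox7b to 0.74 for Cox6a2, so 0 members differed by 2-fold or more, against 2.49% of all genes. Each array holds the RNA of a whole culture, in which fewer cells of a kind and less RNA per cell cannot be told apart. For 68 of the 77 the 95% interval of the difference, taken gene by gene, lay wholly between -1 and 1, which held for 82.1% of all genes. Among genes with a mean of 6 or more these figures were 55 of 61 members and 72.3% of all such genes. A 2-fold difference between the groups was thus outside the interval for most subunits, while smaller ones were within reach of the clone spread.

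**Figure D1:**
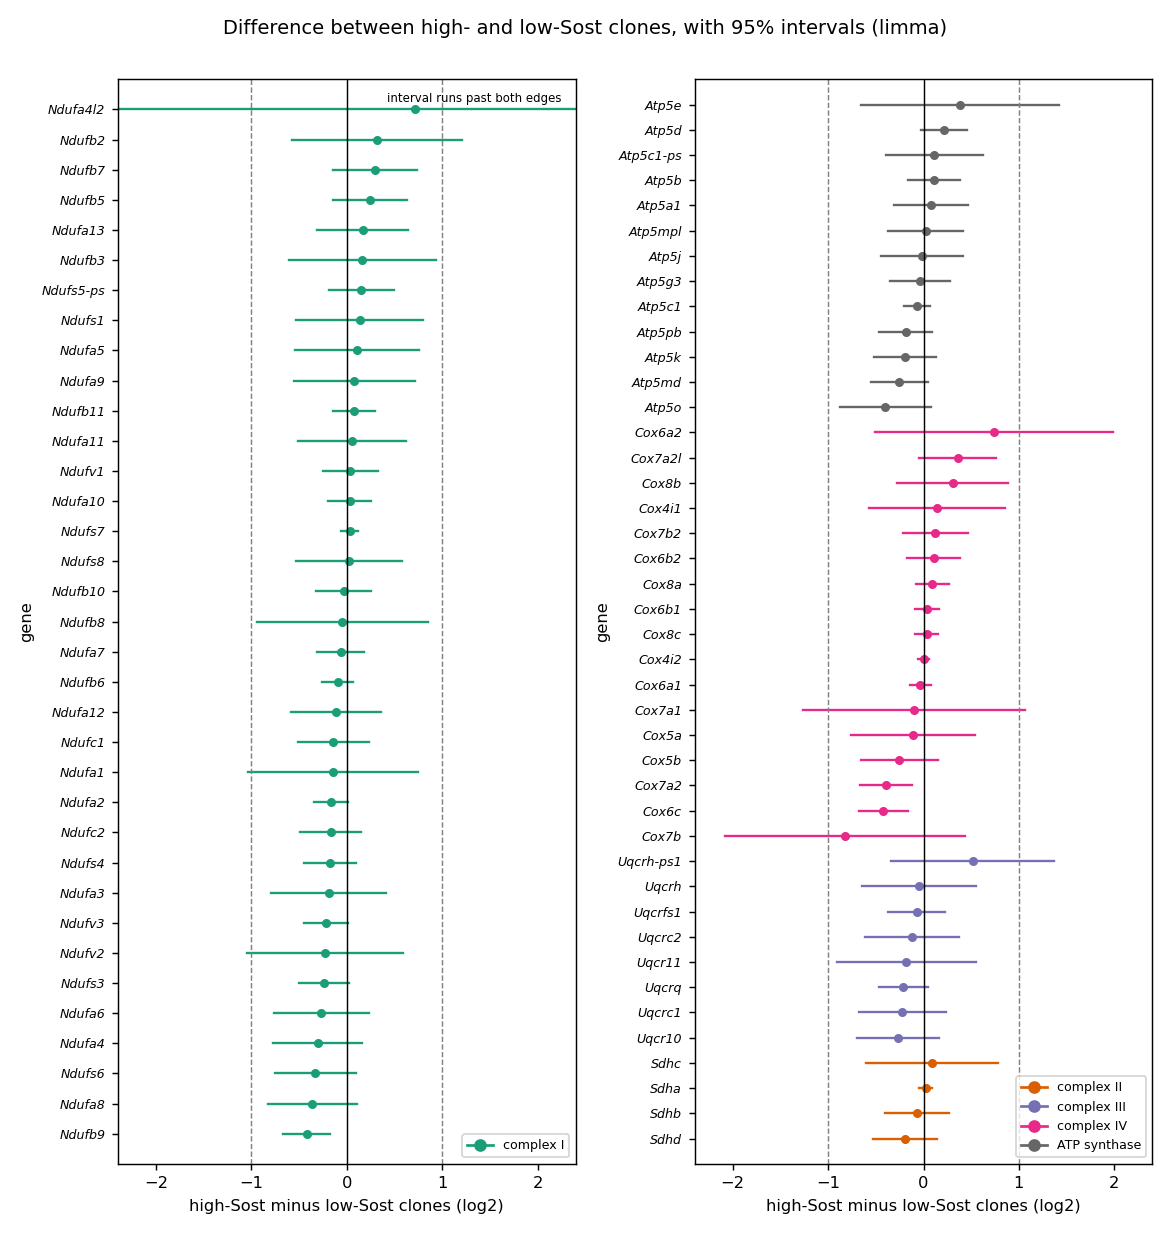
Difference between the 2 high SOST and 3 low SOST clones for each of the 77 rows (points, log2 units) with its 95% interval from limma (lines), grouped by complex, with dashed lines at 2-fold either way. Most intervals cross 0 and stay within the dashed lines, and the interval of Ndufa4l2, from -4.15 to 5.59, runs past both edges of the plot.

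By complex, the median difference was -0.05 in complex I, -0.02 in complex II, -0.15 in complex III, 0.03 in complex IV and -0.02 in ATP synthase. Negative differences were the more frequent sign in complex III, with 7 of 8 rows, and stood at 42 of 77 members (54.5%) against 45.6% of all genes, or 36 of 61 (59%) against 48.9% at a mean of 6 or more. Counting rows in which both high SOST clones lay on the same side of all 3 low SOST clones, 14 members were lower (18.2%, against 7.75% of all genes) and 5 were higher (6.49%, against 8.26% of all genes), which makes 19 in either direction (24.7%, against 16%). Where means of 6 or more were required, the lower count was 13 of 61 (21.3%, against 13.5%) and the higher count 3 of 61 (4.92%, against 12.9%). These counts moved with the clones used, since fewer clones make separation easier. Without 12H, 25 members were lower (18.5% of all genes) and 10 higher (18.7%), and without 15H the counts were 20 (21%) and 15 (25.2%). Without 4L they were 24 lower (11.1% of all genes) and 8 higher (12%), without 9L 17 (12.9%) and 10 (13.6%), and without 24L 20 (11.7%) and 9 (11.9%).

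How far the clones differed from each other over these genes depended on the genes set beside them. The range over the 5 clones, highest minus lowest, had a median of 0.50 over the 77 members, or 1.41-fold, against 0.39 over all 23185 genes, most of which read below 6. It was 0.46 over the 61 members with a mean of 6 or more and 0.58 over all 7807 genes at that level. A range of 1 or more occurred in 7 members (9.09%), against 11.7% of all genes, and in 4 of the 61 (6.56%), against 17.2% of genes at that level. RMA gave 18 members (23.4%) a value that repeats between arrays, against 55.9% of all genes. The median deviation of the members from the mean of the 5 clones was -0.002 in 12H, -0.03 in 15H, then 0.0002, 0.03 and 0.03 in 4L, 9L and 24L. Clone 24L was the single highest clone in 23 members and clone 9L in 18, while 15H was highest in 5. Over all 23185 genes it was 24L in 3710, 9L in 3634 and 15H in 3156, and 12H led most often (5082). Lowest values ran from 12 members in 24L to 18 each in 15H and 4L, against 3932, 3116 and 4452 of all genes. At a mean of 6 or more, 24L was highest in 21 of 61 members, against 1285 of 7807 genes. There 9L led in 16 (1561), 12H in 11 (1817), 4L in 9 (2036) and 15H in 3 (1063). Lowest at that level were 15H in 16 (1030), 4L in 16 (1930), 9L in 11 (1482), 12H in 10 (1766) and 24L in 7 (1558). The clone that was highest thus differed from gene to gene, with 24L the most frequent among the members.

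**Figure D2:**
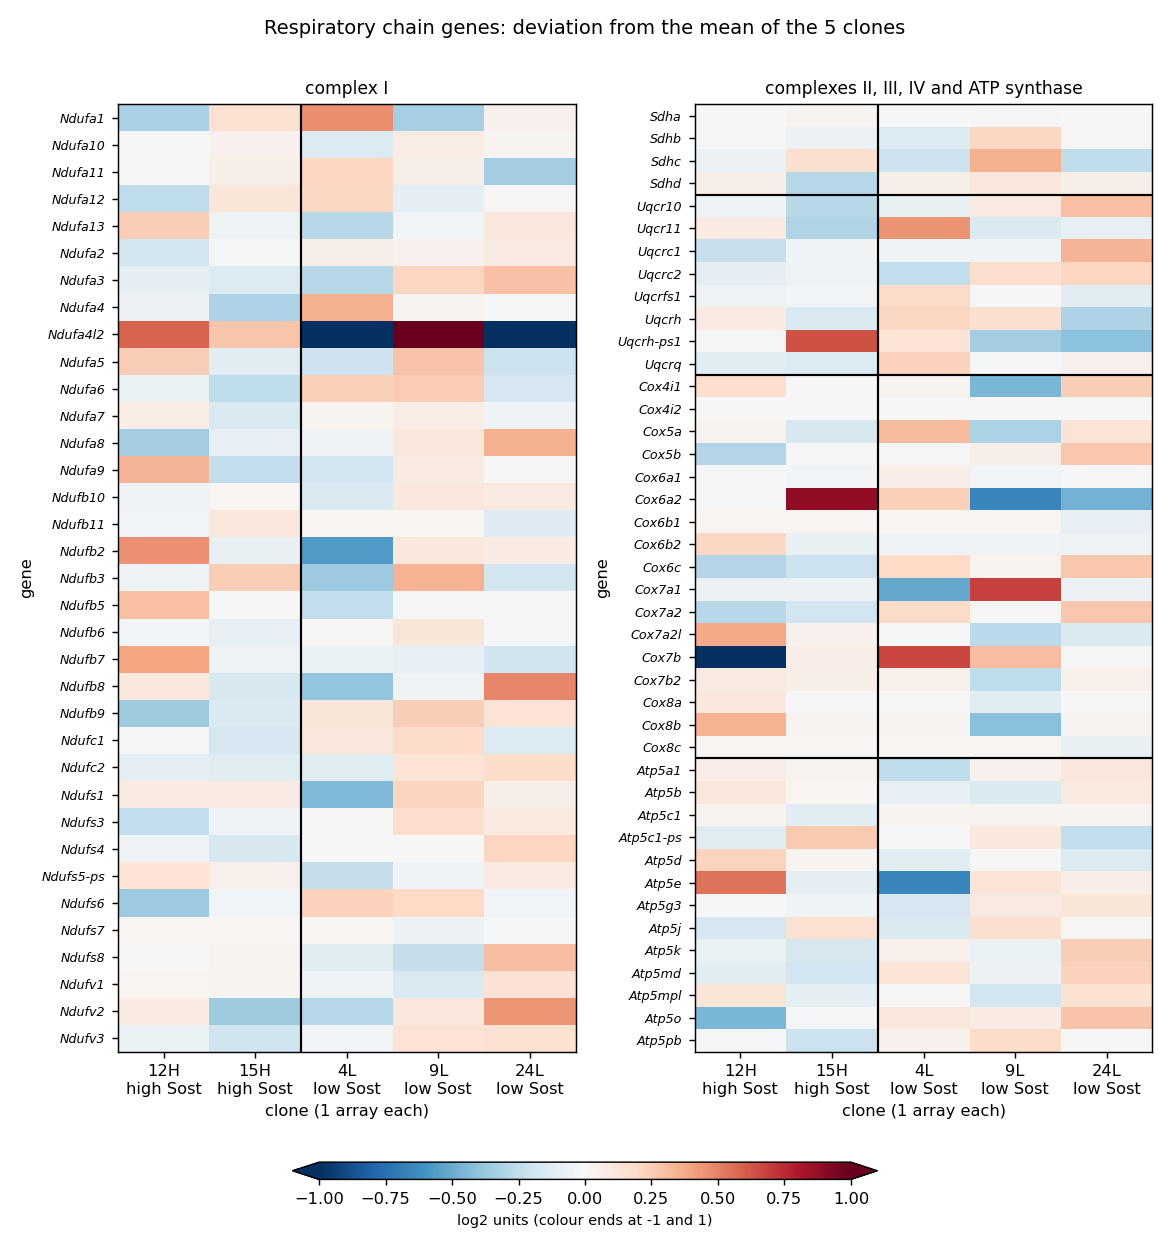
Each member's log2 value minus its mean over the 5 clones, with complex I on the left and the other complexes on the right, split by horizontal lines. Colours end at -1 and 1, and the row of Ndufa4l2, dark blue in 4L and 24L and dark red in 9L, is the widest.

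**Figure D3:**
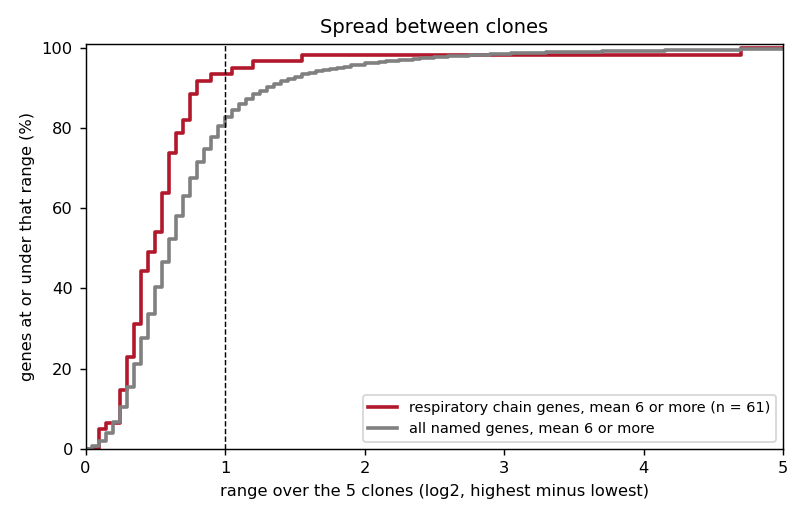
Share of genes (percent) whose range over the 5 clones is at or under the value on the horizontal axis, for the 61 respiratory chain genes with a mean of 6 or more and for all genes at that level. The curve of the respiratory chain lies above that of all genes at a range of 0.3 (23.0% against 15.4%) and still at 2.7 (98.4% against 98.1%), and its last step, at 4.68, is Ndufa4l2.

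Nuclear respiratory chain genes share promoter elements known from other work, among them sites for NRF1, for the ETS factor GABP and for YY1. RefSeq promoter windows of 300 bases (GRCm38.p6, 250 before to 50 after a start) were given for 60 of the 77 members, with 65 start sites. An NRF1 core of 10 letters, those in capitals in the Cox6a1 sequence, was found on either strand in 4 of these 65 windows (6.15%) and in 0.971% of all 32841 windows. The letters ACCGGAAG, a GABP core, occurred in 7 (10.8%) against 2.30% of all windows, and a YY1 core of 10 letters, those in capitals in the Atp5j sequence, in 5 (7.69%) against 0.850%. CCAAT was found in 26 windows (40.0%, against 37.4%) and TATAA in 11 (16.9%, against 24.9%). These shares cover the whole window, and some of the matches lie after the start. In the 250 bases before it, NRF1 letters occurred in 3 windows (4.62%, against 0.783%). There GABP letters occurred in 3 (4.62%, against 1.72%) and YY1 letters in 1 (1.54%, against 0.298%). The NRF1 letters read the same on both strands, and a GABP match can share its last letters with a YY1 match, though no window of a member held both. These are matches of letters, and the arrays did not measure binding. Examples with a match ahead of the start are Cox6a1 and Atp5k (NRF1 letters), Sdhd (GABP letters on the opposite strand) and Atp5j (YY1 letters), shown as the 250 bases before a RefSeq start with the matched letters in capitals. Their ranges over the 5 clones were 0.09, 0.41, 0.40 and 0.33. Atp5e, with GABP letters ahead of its start, had a range of 1.2, Ndufa11, with NRF1 letters there, one of 0.57, and Ndufb6, with GABP letters, one of 0.20, so members with a match lay on both sides of the median of 0.50.
Cox6a1 (chr5:115348959-115349208, minus strand): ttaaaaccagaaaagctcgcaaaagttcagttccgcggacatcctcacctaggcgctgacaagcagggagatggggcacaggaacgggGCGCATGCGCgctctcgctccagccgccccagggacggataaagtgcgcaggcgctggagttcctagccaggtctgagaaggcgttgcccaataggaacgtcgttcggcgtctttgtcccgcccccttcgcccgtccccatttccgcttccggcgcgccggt
Atp5k (chr5:108434400-108434649, minus strand): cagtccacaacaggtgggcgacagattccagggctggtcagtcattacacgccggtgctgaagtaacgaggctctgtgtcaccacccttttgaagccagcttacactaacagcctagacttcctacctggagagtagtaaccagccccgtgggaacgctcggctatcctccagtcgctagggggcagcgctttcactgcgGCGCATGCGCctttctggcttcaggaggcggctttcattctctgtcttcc
Sdhd (chr9:50603850-50604099, minus strand): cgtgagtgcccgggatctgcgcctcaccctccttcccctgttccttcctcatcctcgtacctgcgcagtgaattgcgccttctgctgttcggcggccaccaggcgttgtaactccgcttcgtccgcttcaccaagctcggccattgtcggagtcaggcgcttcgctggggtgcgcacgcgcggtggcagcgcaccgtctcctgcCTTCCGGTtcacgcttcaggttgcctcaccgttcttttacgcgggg
Atp5j (chr16:84834977-84835226, minus strand): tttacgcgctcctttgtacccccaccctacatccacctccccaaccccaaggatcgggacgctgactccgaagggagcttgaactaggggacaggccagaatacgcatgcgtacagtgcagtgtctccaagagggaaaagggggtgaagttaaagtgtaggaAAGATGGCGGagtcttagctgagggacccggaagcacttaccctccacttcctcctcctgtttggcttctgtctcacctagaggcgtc

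In complex I, 8 rows were lower and 2 higher in high SOST clones without overlap (against 7.75% and 8.26% of all genes), and the row with the lowest p of the whole set was here. That row, Ndufb9, an accessory subunit of the membrane arm, read 10.64 in 12H and 10.85 in 15H, and 11.11, 11.24 and 11.13 in 4L, 9L and 24L. Both high SOST clones lay below the low SOST clones, with a difference of -0.42 (SE 0.09, 95% interval -0.67 to -0.17), which did not pass over all genes (limma adjusted p = 0.677). Ndufa8, another accessory subunit, read 8.97 and 9.24 against 9.28, 9.43 and 9.68 in 4L, 9L and 24L, a difference of -0.36 (SE 0.16) without overlap. The other complex I rows with both high SOST clones below all low SOST clones were Ndufa2, Ndufa4, Ndufb6, Ndufs3, Ndufs4 and Ndufv3, with differences from -0.31 to -0.09. On the opposite side stood Ndufb7 (0.30, SE 0.15) and Ndufb5 (0.24, SE 0.14).

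The 6 core subunits of complex I measured, most of which hold the flavin or iron-sulphur clusters, had a median range of 0.49, against 0.53 over complex I. Ndufs7, which carries the cluster next to the ubiquinone site, read between 9.97 and 10.05, with a range of 0.07. Its value was identical in 12H, 15H and 4L. Ndufv1, the flavin-bearing subunit that binds NADH, read between 8.21 and 8.50 (difference 0.04, SE 0.10), and Ndufs8 between 8.56 and 9.11 (0.03, SE 0.19). Ndufs1, the largest subunit of the NADH-oxidising module, read 7.37 in 4L and between 7.87 and 8.04 in the others, so clone 4L alone was low. Ndufv2 read 9.43 and 8.99 in 12H and 15H, and 9.06, 9.45 and 9.79 in 4L, 9L and 24L, with both groups overlapping. Ndufs3 differed by -0.24 (SE 0.09), with 12H lowest at 6.08.

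Among accessory subunits, Ndufb2 had a range of 1.02. It read 8.42 in 12H, 7.90 in 15H, then 7.40, 8.07 and 8.05 in 4L, 9L and 24L. The groups overlapped, and the difference of 0.32 (SE 0.31) fell to 0.06 without 12H and to 0.10 without 4L. Ndufb3 read 3.17 to 3.88 and Ndufa11 4.21 to 4.78, levels at which lack of a difference cannot be told from lack of signal for Ndufb3, which exceeded the receptor level in 2 of 5 clones. Ndufs5-ps, a pseudogene of the subunit Ndufs5, read 7.38 to 7.75. Its probes may also take transcripts of the parent gene, as may those of other subunits with near-identical copies, so these rows are uncertain.

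The catalytic subunit of complex II had a narrow range. Sdha, the flavoprotein that oxidises succinate, read 9.07 in 12H, 9.10 in 15H, then 9.07, 9.05 and 9.07 in 4L, 9L and 24L. Its range of 0.05 was narrower than that of 91.4% of all genes, a share that counts genes with a range at least as wide. The value was identical in 12H, 4L and 24L, a repeat between arrays that limits what so narrow a range can show. Sdhb, the iron-sulphur subunit, read 8.63 to 8.97 (difference -0.07, SE 0.12). Of the membrane anchors, Sdhc read 8.88 to 9.49, with 9L highest, and Sdhd was lowest in 15H at 8.16 while the others lay between 8.50 and 8.56. None of the 4 separated the groups.

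The median difference in complex III was -0.15 over 8 rows and -0.06 without 4L, when complex II (-0.07) and ATP synthase (-0.07) stood as low. Uqcr10, a small subunit, read 8.43 and 8.20 in 12H and 15H, and 8.40, 8.57 and 8.78 in 4L, 9L and 24L, a difference of -0.27 (SE 0.15) with 4L between the high SOST clones. Uqcrc1, a core protein, read 8.89 in 12H, 9.09 in 15H, 4L and 9L, and 9.47 in 24L (difference -0.22, SE 0.16). Its partner Uqcrc2 differed by -0.12 (SE 0.17), and Uqcrfs1, the Rieske iron-sulphur protein, by -0.07 (SE 0.10). Uqcrh, the hinge protein next to cytochrome c1, read 9.71 to 10.22 (difference -0.05, SE 0.21). Uqcrq, which anchors the ubiquinone site, was the only row of complex III without overlap, at 8.67 and 8.65 against 9.02, 8.77 and 8.83 (difference -0.21, SE 0.09). The pseudogene row Uqcrh-ps1 read 2.07 to 3.11, under the receptor level in every clone, and gave the single positive difference, 0.52 (SE 0.30).

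Ranges within complex IV ran from 0 for Cox4i2 to 1.73 for Cox7b. Cox6a1, the ubiquitous form of a regulatory subunit, read 11.98 in 4L and 11.88 to 11.90 in the other clones, with a range of 0.09. Cox6b1, a subunit facing the intermembrane space, and Cox8a, a small membrane subunit, had ranges of 0.10 and 0.22. Values repeated between arrays here too, in 15H and 9L for Cox6a1, in 15H, 4L and 9L for Cox6b1, and in 15H, 4L and 24L for Cox8a. Cox4i1, the main form of the largest nuclear-encoded subunit, read 8.94 in 9L and between 9.40 and 9.64 in the others. Cox5a read 7.68 to 8.31, with a difference of -0.11 (SE 0.23).

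Lower readings in both high SOST clones were seen for a pair of complex IV subunits. Cox7a2, the ubiquitous form of subunit VIIa, read 7.21 in 12H and 7.30 in 15H, and 7.68, 7.50 and 7.75 in 4L, 9L and 24L. The groups did not overlap, with a difference of -0.39 (SE 0.09, 95% interval -0.66 to -0.12, limma adjusted p = 0.737). Cox6c read 5.05 and 5.13 against 5.54, 5.37 and 5.61, again without overlap (-0.42, SE 0.09, adjusted p = 0.679). Leaving out any clone kept the difference of Cox7a2 between -0.46 and -0.34 and that of Cox6c between -0.49 and -0.37. Together with Ndufb9 these are the 3 members with an unadjusted p under 0.05, and none of them passed over all genes.

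Cox7b, whose subunit is needed for assembly of complex IV, had the most negative difference and one of the widest ranges. It read 2.94 in 12H, 4.06 in 15H, then 4.67, 4.31 and 4.00 in 4L, 9L and 24L. Clone 12H was the low one and 15H lay between the low SOST clones, and the value in 12H was under the receptor level. The difference of -0.82 (SE 0.44) became -0.26 without 12H and -1.39 without 15H. Cox5b, at 3.30 to 3.87, and Cox7a2l, a supercomplex factor named as a Cox7a2 relative, at 3.36 to 4.01, also read near the receptor level. Cox7a2l was higher in both high SOST clones (0.36, SE 0.14), with 9L and 12H at the extremes.

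Isoforms tied to particular tissues mostly read low. Cox4i2, the lung and hypoxia form of subunit IV, held 1 value, 3.63, on all 5 arrays, a trait seen in 5.52% of all genes and in 1 member. Cox6b2 (3.15 to 3.43), Cox7b2 (1.34 to 1.68) and Cox8c (1.94 to 2.04), all known from testis, and Cox8b (2.07 to 2.83), known from heart and muscle, were under the receptor level in every clone. Differences of these 4, from 0.03 to 0.31, cannot be told from lack of signal.

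Of the heart and muscle forms, Cox6a2 and Cox7a1 read above that level in every clone. Cox6a2 read 6.79 in 12H, 7.68 in 15H, then 7.03, 6.14 and 6.32 in 4L, 9L and 24L. Clone 15H was highest, and the low SOST clone 4L lay between the high SOST clones. The difference of 0.74 (SE 0.43, 95% interval -0.51 to 1.98) was the most positive of the set and did not pass (limma adjusted p = 0.737). It was 0.29 without 15H and 1.18 without 12H. Cox7a1 read 4.69 in 12H, 15H and 24L, 4.24 in 4L and 5.43 in 9L, a difference of -0.10 (SE 0.41) that turned to 0.22 without 9L. Other muscle genes were read beside them. Of 22 striated muscle markers 6 exceeded the receptor level in every clone. The mean over the 22 was 3.32 and 3.30 in the high SOST clones and 3.20 to 3.26 in the low SOST clones. Their differences had a median of 0.0047, with 11 positive and 9 negative. Without overlap, 3 of the 22 were higher in high SOST clones and 0 were lower (8.26% and 7.75% of all genes). Among the 3 were Acta1 (0.48, SE 0.10) and Des (1.26, SE 0.49). Tnnc2 (-0.29, SE 0.21), Myh4 (-0.33, SE 0.17) and Myf5 (-0.18, SE 0.17) had differences of the other sign, and myosin heavy chain and creatine kinase genes read 3.35 or less. The part of such cells in the Cox6a2 values was not tested.

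**Figure D4:**
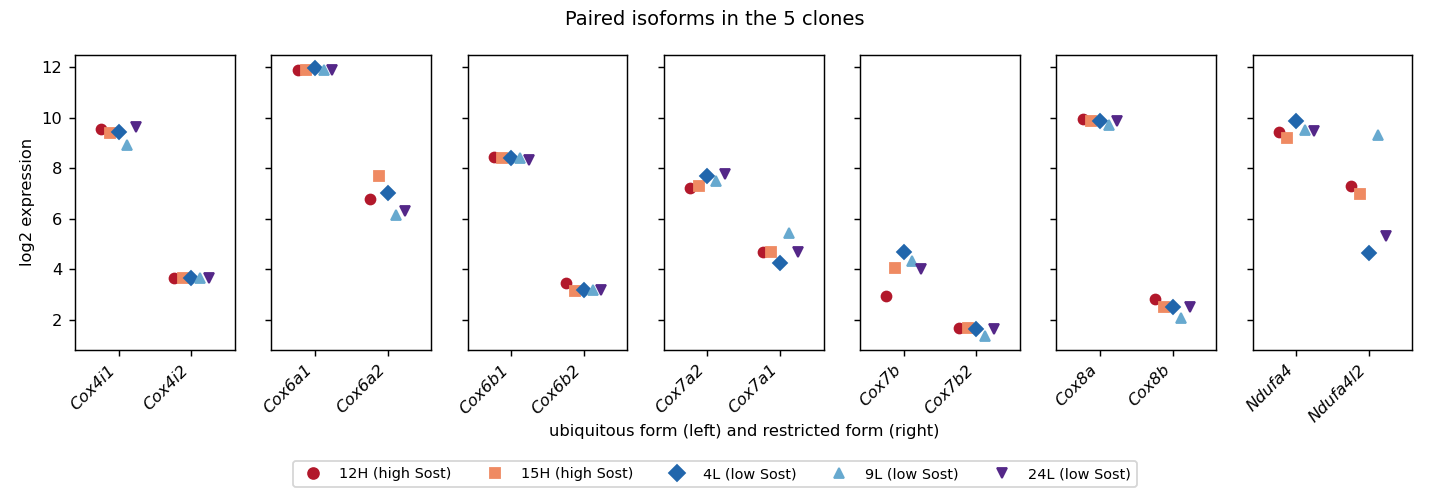
Log2 expression in each clone (1 point per clone) of 7 pairs of a ubiquitous gene, left, and its tissue-restricted or low-oxygen relative, right. Levels of different genes are not comparable, and the spread to read is the vertical one within a gene: the ubiquitous forms other than Cox7b span at most 0.70, while Ndufa4l2 runs from 4.63 in 4L to 9.30 in 9L.

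ATP synthase subunits also had small differences. In the catalytic head, Atp5b read 11.31 to 11.57 (difference 0.11, SE 0.09) and Atp5a1 read 9.90 in 4L and 10.18 to 10.27 in the other clones (0.08, SE 0.13). In the central stalk, Atp5d read 10.67 in 12H and 10.48 in 15H against 10.34, 10.44 and 10.31 in 4L, 9L and 24L, a difference of 0.21 (SE 0.08) without overlap. Atp5c1 held the same value, 5.33, in 4 clones and 5.20 in 15H. Atp5e, the small stalk subunit, was the variable row, at 8.26 in 12H, 7.63 in 15H, then 7.06, 7.84 and 7.78 in 4L, 9L and 24L. Clone 12H was high and 4L low, and the difference of 0.38 (SE 0.36) fell to 0.06 without 12H and 0.13 without 4L.

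The 3 listed subunits of the peripheral stalk, which holds the head in place, had negative differences. That of Atp5j was close to none and turned sign when 1 clone was left out. Atp5o, which links the stalk to the head, read 7.73 in 12H and 8.17 in 15H, and 8.30, 8.27 and 8.47 in 4L, 9L and 24L, a difference of -0.40 (SE 0.17) without overlap. Atp5pb differed by -0.19 (SE 0.10), also without overlap, while Atp5j (-0.02, SE 0.15) did overlap. Atp5md, a small subunit of the membrane part, read 8.55 and 8.47 against 8.79, 8.60 and 8.90 (-0.25, SE 0.11, without overlap). Atp5g3, a gene for the rotating c ring, read 8.63 to 8.92 (-0.04, SE 0.11). Atp5c1-ps, a pseudogene row, read 1.77 to 2.28, under the receptor level.

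The widest range of the set was that of Ndufa4l2, a gene induced by the hypoxia-inducible factor HIF-1 and known to restrain complex I activity at low oxygen. It read 7.29 in 12H, 6.98 in 15H, then 4.63, 9.30 and 5.32 in 4L, 9L and 24L. Clones 9L and 4L, both low SOST, stood at the 2 ends, 25.6-fold apart, with the high SOST clones between them. Only 0.207% of all genes had a range as wide as its 4.68. The difference between the groups, 0.72 (SE 1.70, 95% interval -4.15 to 5.59, limma adjusted p = 0.919), was smaller than the SD of 2.52 among the 3 low SOST clones. It was 2.16 without 9L and -0.18 without 4L, so the group comparison says little about this gene.

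The clone pattern of Ndufa4l2 can be set beside a list of 13 genes that tie respiration to oxygen, which holds it and Cox4i2. Of the 11 others, 8 were highest in 9L, against 3634 of all 23185 genes. The median deviation of the 11 from their own means was 0.53 in 9L, 0.14 in 24L, -0.13 in both 12H and 4L and -0.34 in 15H. Pdk1, a kinase that inhibits pyruvate dehydrogenase, read 8.87 in 9L, 8.36 in 24L, 7.74 in 12H, 7.43 in 15H and 6.97 in 4L. Bnip3, a mitophagy receptor, read 8.54 in 9L, 7.40 in 24L, 7.23 in 12H, 7.04 in 15H and 6.70 in 4L. Ldha, which makes lactate, read 10.84 in 9L and 9.76 in 4L, its highest and lowest values. In all of these 9L was high and 4L low, as in Ndufa4l2, but 24L lay above the high SOST clones, where for Ndufa4l2 it lay below them.

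Further members of that list had other orders. Hif1a was lowest in 9L (8.57) and highest in 24L (8.99). Egln1 was highest in 24L (8.28, against 7.80 in 9L) and Lonp1 in 4L (9.40, against 9.27 in 9L). Epas1, the HIF-2 alpha gene, read 5.87 in 9L and 5.69 in 12H, then 4.33 in 15H, 3.92 in 4L and 3.63 in 24L. Egln3, an oxygen sensor, read 8.27 in 9L and 6.03 in 12H at its ends, and Slc2a1, the glucose transporter, 10.35 in 9L and 8.63 in 12H. Both were lower in the high SOST clones without overlap (-1.24, SE 0.48, and -0.96, SE 0.35), as was Vhl, which targets HIF for degradation (-0.40, SE 0.13). Higd1a, a hypoxia-induced factor of the respiratory chain, read 6.01 in 9L and 5.29 to 5.45 in the others, also with both high SOST clones lowest (-0.31, SE 0.24). Of the 13, 4 were lower and 0 higher without overlap (7.75% and 8.26% of all genes), and 0 passed over all genes. Whether oxygen at harvest differed between the cultures was not measured, and its part in these values was not tested.

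**Figure D5:**
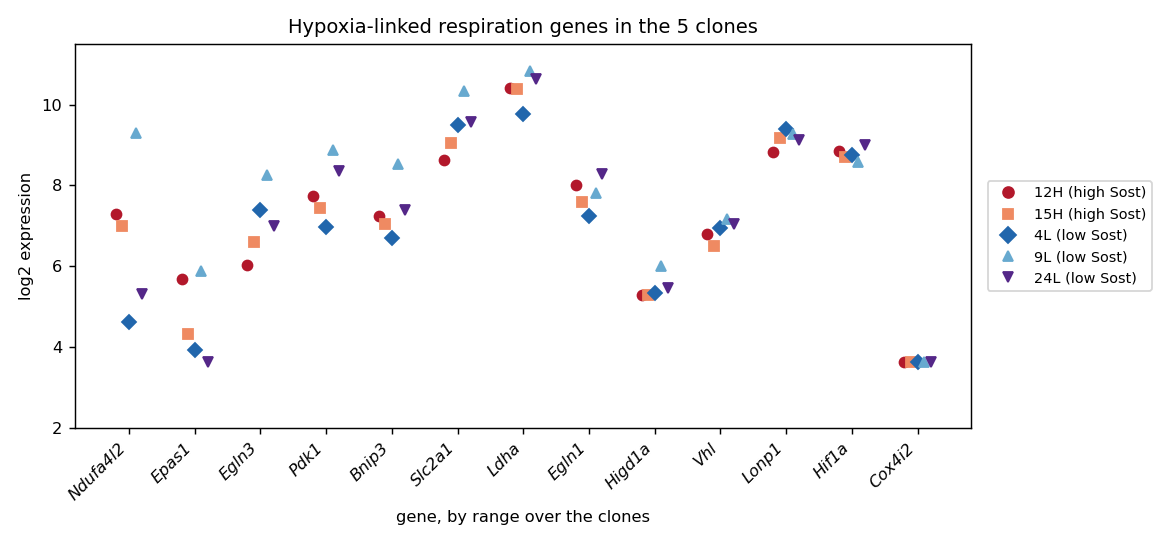
Log2 expression of the 13 genes that tie respiration to oxygen, 1 point per clone, ordered by their range over the clones. Clone 9L is the highest in 9 of the 13, with Ndufa4l2 the widest and Cox4i2 at 1 value.

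Genes that build or serve the chain likewise held 0 that passed over all genes. Of 47 assembly factors measured, 8 were lower and 2 higher in high SOST clones without overlap (7.75% and 8.26% of all genes), with a median difference of -0.03. Sco2, a copper chaperone for complex IV, read 6.56 and 6.47 against 6.87, 6.85 and 6.78 (difference -0.32, SE 0.05, limma adjusted p = 0.588). Timmdc1, which helps assemble complex I, differed by -0.31 (SE 0.10), and Tmem186, another complex I assembly factor, by 0.52 (SE 0.08).

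Of 27 listed components of the chain, 4 were lower and 6 higher without overlap (7.75% and 8.26% of all genes), with a median of 0. The 6 include Cox7a2l, which is also counted among the complex IV rows above. Cyc1, cytochrome c1 of complex III, whose symbol falls outside the rule, read 7.35 in 12H and 7.53 in 15H, and 7.97, 8.14 and 7.87 in 4L, 9L and 24L. Its difference of -0.55 (SE 0.11) was larger in size than that of any complex III row that the rule took, and did not pass (adjusted p = 0.677). Atpif1, the inhibitor of ATP synthase, read 10.20 and 10.28 against 10.68, 10.61 and 10.57 (-0.38, SE 0.05, adjusted p = 0.572). Cycs, cytochrome c, read 2.31 to 3.05, under the receptor level in every clone, so its difference of 0.44 (SE 0.17) cannot be told from lack of signal.

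Of 27 regulators of mitochondrial content, 2 were higher and 3 lower without overlap, near the 8.26% and 7.75% of all genes, with a median of 0.03. Sirt1, a deacetylase acting on PGC-1 alpha, read 8.80 in 12H and 8.66 in 15H, and 8.28, 7.71 and 8.04 in 4L, 9L and 24L (difference 0.72, SE 0.20). Ppargc1a, which encodes PGC-1 alpha, read 1.82 to 2.57 and was under the receptor level. Gabpb1, a subunit of GABP, differed by -0.34 (SE 0.13), and Polrmt, the mitochondrial RNA polymerase, by 0.13 (SE 0.06). Tfb2m, a mitochondrial transcription factor, read 1.77 in 12H and 3.98 to 4.96 in the other clones, so its difference of -1.49 (SE 0.91) was -0.23 without 12H.

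Among 24 genes of the tricarboxylic acid cycle and pyruvate oxidation, 1 was lower and 0 were higher without overlap (7.75% and 8.26% of all genes), with a median of -0.004. That gene, Pdp1, the phosphatase that activates pyruvate dehydrogenase, read 6.95 in 12H and 7.11 in 15H, and 8.12, 7.60 and 8.29 in 4L, 9L and 24L, a difference of -0.97 (SE 0.25, limma adjusted p = 0.737). Sucla2, of succinyl-CoA ligase, differed by 0.17 (SE 0.12), and Dlat, of the pyruvate dehydrogenase core, by 0.12 (SE 0.08).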

How the data were processed

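Per the labels, total RNA of each clone was biotin-labelled with a WT Plus kit and measured on 1 array. The deposited values are log2 expression per probe set, and RMA is listed in the submitters' processing notes, beside R 2.15.1 and affy 1.36.1, without role or order. RMA brings arrays to nearly 1 distribution (sorted values differ by at most 0.245), so a shift of the whole array in a clone cannot be seen. For the chip definition and the build, the sources used here give nothing.

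Of 25206 rows, 23185 have 1 gene symbol in the platform table and 2021 unnamed rows stayed out. All 77 members matched RefSeq by Entrez number. Groups were compared with limma 3.58.1 in R 4.3.3 (lmFit, eBayes without trend, prior degrees of freedom 0.701), and two-sided p-values were adjusted over all 23185 genes by Benjamini-Hochberg. In simulated data, 50 genes were altered per size. At a log2 change of 1, 92% fell under an unadjusted p of 0.05 and 44% passed the adjusted threshold. At 2 these shares were 98% and 72%. The altered genes were drawn from all genes, whose median SE of 0.12 lay below the 0.18 of genes with a mean of 6 or more. In the measured data 578 genes differed by 1 or more and 0 passed, so these rates do not give the power for the members. P-values measure the spread between clones, with 1 array each.

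Members and lists were chosen with earlier results of these data known. Genes were named by role in their complex, by a difference or range of 1 or more, by the most positive and most negative differences and the highest and lowest means per complex, and by the smallest p in the other lists. The rule named 47 members and 15 other genes, while 22 others, and the cell type markers named, were picked with their values in view. Figures were drawn with matplotlib 3.10.9.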

Additional observations from a re-analysis of the deposited data

How the results depend on the processing

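Values were recomputed after a further quantile normalization or a shift of the arrays to 1 median, with a filter on the dimmest 30% of genes, a variance trend (robust or not), array weights or no moderation, without each clone in turn, for members with a mean of 6 or more, without names that are not subunits and, chosen after seeing the data, without the 3 pseudogene rows. No member passed the adjusted threshold under any of these, and the lowest adjusted p of a member was 0.0818, without 15H. With arrays shifted to 1 median, 2 genes of all tested passed as higher, and neither is a member. The setting without names that are not subunits left out Ndufa4l2 and kept Cox7a2l. Without the dimmest 30% of genes, the median difference was -0.0575 over the members and -0.0162 in complex IV. Leaving out 1 clone gave medians from -0.0587 to -0.0063 over the members, -0.0655 to 0.0044 in complex I, -0.0740 to 0.0191 in complex II, -0.174 to -0.0649 in complex III, 0 to 0.0486 in complex IV and -0.0655 to 0.0152 in ATP synthase, so the sign turned in complexes I and II and ATP synthase. It gave 8 to 15 members higher and 17 to 25 lower without overlap, and a median deviation of clone 9L from 0.024 to 0.0669. Members with an unadjusted p under 0.05 numbered 4 higher and 6 lower without 15H (5.19% and 7.79%, against 7.83% and 5.56% of all genes), and 0 and 8 without 4L (0% and 10.4%, against 2.94% and 2.9%). The sign of 20 named genes turned when 1 clone was left out, none past the threshold on either side, and the range of the difference was Atp5a1 (-0.033 to 0.15), Atp5c1-ps (-0.074 to 0.30), Atp5g3 (-0.13 to 0.016), Atp5j (-0.17 to 0.14), Bnip3 (-0.83 to 0.089), Cox4i1 (-0.055 to 0.30), Cox5a (-0.29 to 0.028), Cox6b2 (-0.034 to 0.25), Cox7a1 (-0.37 to 0.22), Epas1 (-0.15 to 1.23), Ldha (-0.33 to 0.21), Ndufa11 (-0.11 to 0.18), Ndufa4l2 (-0.18 to 2.16), Ndufs1 (-0.059 to 0.27), Ndufs8 (-0.086 to 0.19), Ndufv1 (-0.030 to 0.12), Sdhb (-0.15 to 0.022), Sdhc (-0.023 to 0.28), Uqcrfs1 (-0.14 to 0.012), Uqcrh (-0.21 to 0.073). Ndufs8 also turned with array weights, to -0.0028. The causes were not tested. No paired analysis was possible because the clones share no replicate number between groups. The number of arrays, 1 per clone, and signal near the receptor level limit what rows such as Cox7b, Cox5b and Ndufb3 can show.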
